A study of Mus musculus with 9 samples.

Results

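Transcripts of the EGFR receptor family and of its ligands were compared between wild-type (WT) Lewis lung carcinoma (LLC) cells and their CD47 knockout (KO) derivatives. The genes were 3 receptors (Egfr, Erbb2 and Erbb3), 6 genes for ligands of EGFR (Areg, Ereg, Hbegf, Tgfa, Btc and Epgn) and the neuregulin gene Nrg1. They were chosen by gene symbol. These 10 genes took 11 of the 50813 rows of the count table, since Nrg1 had a second row with 0 counts in every library. After a filter on low counts 9 of the 10 genes could be tested, among 14593 genes in all, and Epgn could not.

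LLC is a mouse lung carcinoma line, described by the study as mesenchymal-like, and the cells used here stably expressed luciferase. RNA-seq was performed on clonal WT cells and on the CD47 KO clones named E3 and E5, each with 3 libraries, all grown in culture without treatment. Both KO lines were made with CRISPR-Cas9 and expanded from single cells, so each KO group is 1 clone and the effect of the edit and the history of a clone cannot be told apart within it. With clonal WT cells, a change shared by both KO clones cannot be told apart from the history of the WT cells either. The study's methods describe the 3 libraries of a genotype as independent biological replicates. The labels number them as replicates without naming separate cultures. The p-values measure the spread between libraries of a line, estimated over all 3 lines together.

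The receptors of this family are tyrosine kinases that sit in the cell membrane and act as pairs. EGFR binds the EGF-like ligands, ERBB2 has no known ligand of its own and serves as the favoured partner, and ERBB3 binds neuregulins but has little kinase activity and signals through its partners, mainly to PI3 kinase. The ligands are made as membrane proteins and are released by proteases of the ADAM family. In lung cancer the family is best known as a route into the RAS, RAF, MEK and ERK cascade, and several of the ligand genes are in turn transcribed in response to that cascade.

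Total counts were 44257404 to 55095219 per library. These totals exceed the number of reads per library that the protocol gives, and whether the mates of a read pair were counted separately is not given in the sources used here, so it is uncertain what 1 count stands for. Levels are given in CPM, counts relative to library size after scaling by edgeR's TMM factors. Cd47 itself was measured at 187, 179 and 182 CPM in WT cells, at 47.4, 36.7 and 49.6 CPM in clone E3 and at 15.5, 18.6 and 18.1 CPM in clone E5. It was therefore lower in every KO library than in every WT library, and lower in E5 than in E3, with RNA still present in both clones. Replicate 3 of clone E3 stood apart from the other libraries of its line: the chi-square per degree of freedom over genes was 192 and 232 against its 2 partners, compared with 4.82 to 39.1 for the other pairs of replicates. Where a call on a named gene against WT changed without that library, the value or the call without it is given beside the result. Among marker genes, 5 of 5 mesenchymal genes were above 1 CPM in at least 1 library, while none of 5 lung epithelial, 6 leukocyte and 4 endothelial genes was. Of 7 carcinoma epithelial markers only Krt8 and Krt18 reached 1 CPM, and Epcam had 0 counts in all libraries. The summed level of these 7 genes was 451 to 459 CPM in WT cells, 127 to 199 CPM in E3 and 896 to 958 CPM in E5, and its part in the results was not tested.

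Of the 6 EGFR ligand genes, 4 lie side by side on mouse chromosome 5, within 376 kb of the GRCm39 build. From the counts table their positions were chr5:91175323-91183074 for Epgn, chr5:91222481-91241505 for Ereg and chr5:91287458-91296291 for Areg, all on the plus strand, and chr5:91505120-91550853 on the minus strand for Btc. Since 3 of these neighbours had different patterns across the lines, the 250 bases before their annotated start sites are shown. The sequences were read 5′ to 3′ on the coding strand from GRCm39 with GENCODE release M39 starts, from chr5:91287201-91287450 (plus), chr5:91221907-91222156 (plus) and chr5:91550884-91551133 (minus). These starts differ from the gene positions in the counts table, so the windows do not directly adjoin those positions. The gap is widest for Ereg, whose window ends at 91222156 while the counts table starts the gene at 91222481. Capitals mark matches to a cyclic AMP response element (TGACGTCA), to an AP-1 site (TGACTCA) or to a TATA box (TATAAA).
Areg: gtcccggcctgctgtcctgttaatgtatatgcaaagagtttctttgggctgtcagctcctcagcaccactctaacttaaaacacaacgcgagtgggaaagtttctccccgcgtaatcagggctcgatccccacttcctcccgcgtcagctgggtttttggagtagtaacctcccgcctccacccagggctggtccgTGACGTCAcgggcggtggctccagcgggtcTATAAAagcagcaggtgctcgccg
Ereg: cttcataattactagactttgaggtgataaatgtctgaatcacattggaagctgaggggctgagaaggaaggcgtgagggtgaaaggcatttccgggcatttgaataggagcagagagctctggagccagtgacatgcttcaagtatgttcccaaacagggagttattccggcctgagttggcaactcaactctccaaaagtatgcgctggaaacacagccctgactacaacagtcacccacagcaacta
Btc: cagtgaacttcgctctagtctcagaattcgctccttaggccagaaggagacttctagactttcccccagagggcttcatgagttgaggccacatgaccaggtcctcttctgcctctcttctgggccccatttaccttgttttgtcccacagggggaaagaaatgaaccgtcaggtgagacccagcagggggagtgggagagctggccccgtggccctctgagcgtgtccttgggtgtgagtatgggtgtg

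In the Areg sequence a full cyclic AMP response element, which reads the same on both strands, spans bases -54 to -47 from the start site, and a TATA box spans bases -24 to -19. The element was found on either strand in 1 of the 10 genes and in 1.69% of 21770 promoters of the same length. TATAAA was found in 2 of the genes, Areg and Epgn, and in 11.9% of promoters. Both strands were searched in the same way for 5 other motifs. AP-1 (TGACTCA; 4.02% of promoters) was found in Erbb3 and Tgfa, ETS (CCGGAAG; 6.89%) in Egfr, and SP1 (GGGCGG; 36.3%) in Areg, Erbb3, Hbegf and Nrg1. EGR1 (GCGNGGGCG; 4.48%) and the CArG box (1.40%) were found in none of the 10. No motif searched was found in the 250 bases before the GENCODE M39 starts of Ereg or Btc, and the bases before other starts were not searched. These matches describe letters in a window and no binding was measured. The window of Nrg1, chr8:32408882-32409131 (minus), lies inside the gene, which spans chr8:32304579-33374825 in the counts table. It is therefore not the sequence before the 5′ end of that span.

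In clone E3 against WT, 5 of the 9 tested genes changed at an FDR under 0.05, where 30.5% of all genes did. Areg, Hbegf and Ereg fell (14.7% of all genes did) and Nrg1 and Btc rose (15.7%). In clone E5 against WT, 3 of the 9 changed, where 20.6% of all genes did: Areg and Erbb3 fell (11.7%) and Btc rose (8.96%). The 3 lines shared 1 fit, so the spread of the E3 libraries entered this test. With only the WT and E5 libraries fitted, 5 genes passed, Hbegf and Nrg1 among them, where 46.8% of all genes did. Between the clones 4 of the 9 differed, where 31.9% of all genes did. Areg and Hbegf were higher in E5 (14.7%), and Nrg1 and Erbb3 were lower in E5 (17.2%). The libraries of the lines compared did not overlap for 6 genes in E3 (45.4% of all genes), 5 in E5 (55.4%) and 4 between the clones (44.6%). Differentially expressed genes (DEGs), which also had an absolute log2 fold change above 1, numbered 3 in E3 (9.82% of all genes), 2 in E5 (8.21%) and 3 between the clones (11.0%). The median log2 fold change of the 9 genes was -0.03 in E3, beside 0.01 over all genes, and -0.13 in E5, beside -0.0023 over all genes. Both comparisons with WT share the same 3 WT libraries.

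**Figure D1:**
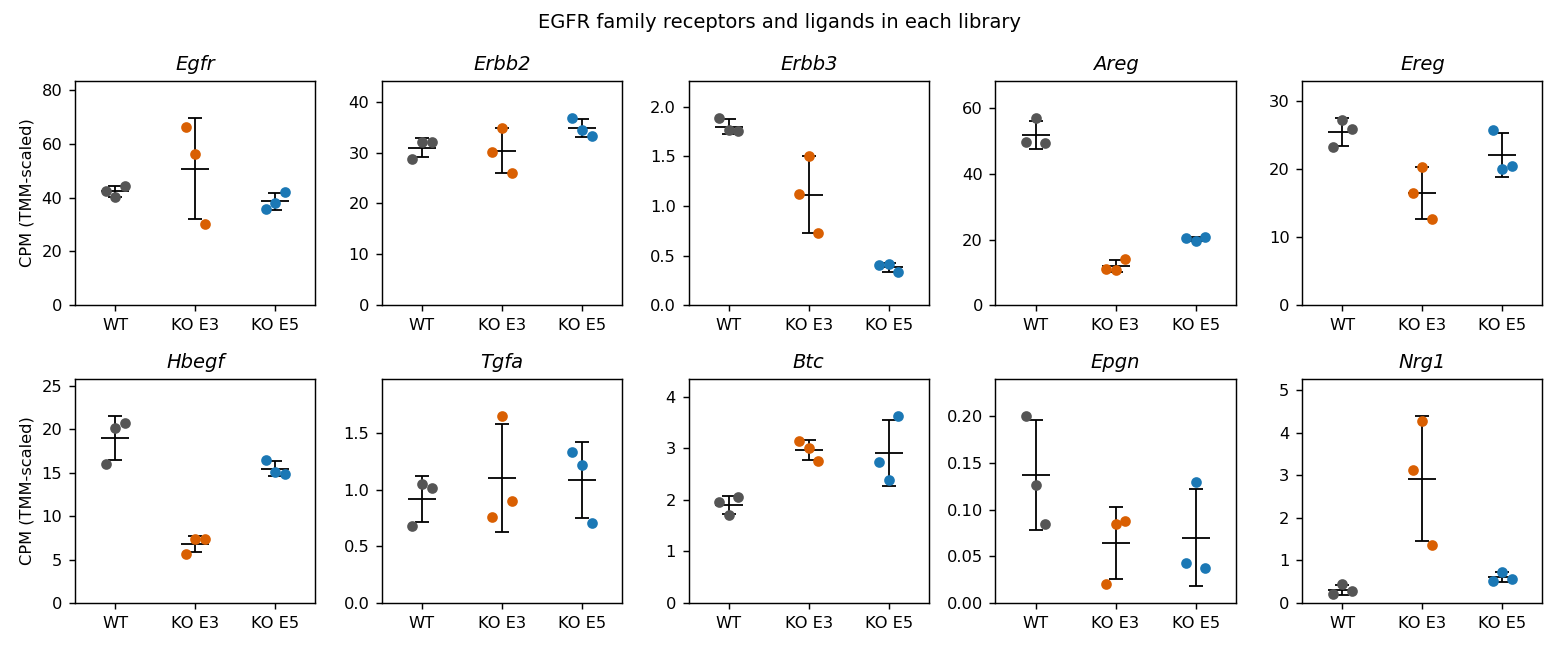
Level of each of the 10 genes in each library, in TMM-scaled CPM on linear axes that start at 0, for 3 libraries of WT, KO E3 and KO E5 cells (points; bars are the mean and SD). Areg lies between 49.3 and 56.9 CPM in WT cells and at or below 20.8 CPM in every KO library, while Hbegf is low only in the 3 E3 libraries and Nrg1 is highest in them.

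Among the receptors, Erbb3 changed and Egfr and Erbb2 did not pass the test in any comparison. Egfr (chr11:16702203-16868158, plus strand), the receptor for the EGF-like ligands, was measured at 42.6, 40.2 and 44.3 CPM in WT cells, at 66.2, 56.2 and 30.0 CPM in E3 and at 35.9, 37.9 and 42.2 CPM in E5. Replicates 1 and 2 of E3 were above every WT library and replicate 3 was below them. The log2 fold change was 0.26 ± 0.23 (SE) in E3, with a 95% interval of -0.24 to 0.77 (adjusted p = 0.419, edgeR), and -0.13 in E5 (interval -0.64 to 0.37, adjusted p = 0.733, edgeR). Without replicate 3 of E3, Egfr was higher in E3 than in WT cells by a log2 fold change of 0.53 (adjusted p = 0.000479, edgeR) and lower in E5 than in E3 by -0.65 (adjusted p = 9.48e-05, edgeR). The call on Egfr in clone E3 thus rests on 1 library. Antisense long noncoding RNAs, Egfros and Eldr, overlap Egfr, and predicted antisense genes overlap Ereg, Hbegf, Tgfa and Nrg1. The strand setting of the counting is not given in the sources used here, so reads of such pairs may not be told apart.

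Erbb2 (chr11:98303296-98328542, plus strand), the receptor without a ligand of its own, was measured at 28.8, 32.1 and 32.1 CPM in WT cells, at 30.2, 34.8 and 26.0 CPM in E3 and at 36.7, 34.4 and 33.3 CPM in E5. The E3 libraries lay on both sides of the WT libraries, and the E5 libraries lay slightly above them. Log2 fold changes were -0.03 in E3 (interval -0.29 to 0.23, adjusted p = 0.872, edgeR) and 0.17 in E5 (interval -0.09 to 0.43, adjusted p = 0.356, edgeR). In E3 the sign turned with upper-quartile scaling, to 0.04. The gene overlaps Mien1 on the other strand.

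Erbb3 (chr10:128403392-128425521, minus strand), the neuregulin-binding receptor, was low in all lines. It was measured at 1.88, 1.77 and 1.75 CPM in WT cells (83 to 94 counts), at 1.12, 1.5 and 0.726 CPM in E3 and at 0.409, 0.412 and 0.333 CPM in E5 (18 or 19 counts). The 3 lines did not overlap: every E5 library was below every E3 library, and every E3 library below every WT library. In E5 Erbb3 fell by 2.22 on the log2 scale (SE 0.28, adjusted p = 0.000288, edgeR), a 4.67-fold difference. The log2 fold change in E3 was -0.69 and did not pass (adjusted p = 0.0577, edgeR), although it did by DESeq2 (adjusted p = 0.0442) and without replicate 2 of E3 (-0.96, adjusted p = 0.0138, edgeR). The difference between the clones passed, at -1.54 (SE 0.28, adjusted p = 0.00243, edgeR). Erbb4, the remaining receptor of the family, was at 0 counts in 8 of 9 libraries and at 1 count in replicate 2 of E3.

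Areg encodes amphiregulin, an EGFR ligand with a heparin-binding stretch. It was measured at 49.7, 56.9 and 49.3 CPM in WT cells, at 11.0, 10.8 and 14.0 CPM in E3 and at 20.4, 19.6 and 20.8 CPM in E5. No 2 lines overlapped, with WT highest, E5 between and E3 lowest. Areg fell by 2.12 on the log2 scale in E3 (SE 0.12, adjusted p = 2.95e-06, edgeR), 4.36-fold, and fell by 1.36 in E5 (SE 0.12, adjusted p = 2.52e-05, edgeR), 2.56-fold. E5 was higher than E3 by 0.77 (SE 0.12, adjusted p = 0.000883, edgeR). By p-value it ranked 28 of 14593 genes in E3 and 202 in E5. It was the 1 gene of the 10 that was a DEG in both clones, and under all alternatives run the E3 value lay between -2.26 and -2.04 and the E5 value between -1.40 and -1.29 on the log2 scale. Since RNA came from whole cultures, fewer expressing cells and less RNA per cell cannot be told apart.

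Hbegf (chr18:36637980-36648858, minus strand) encodes heparin-binding EGF-like growth factor, which binds EGFR and ERBB4. Its levels were 16.0, 20.2 and 20.7 CPM in WT cells, 5.68, 7.40 and 7.32 CPM in E3 and 16.5, 15.1 and 14.9 CPM in E5. All E3 libraries were below all others, and E5 overlapped WT. In E3 Hbegf fell by 1.48 on the log2 scale (SE 0.14, adjusted p = 5.84e-05, edgeR), 2.79-fold, and was higher in E5 than in E3 by 1.19 (SE 0.14, adjusted p = 0.00016, edgeR). The log2 fold change in E5 against WT was -0.29 (interval -0.60 to 0.01, adjusted p = 0.163, edgeR), and it passed when only the WT and E5 libraries were fitted (adjusted p = 0.0326, edgeR).

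Ereg encodes epiregulin, a ligand of EGFR and ERBB4. Its levels were 23.4, 27.3 and 25.9 CPM in WT cells, 16.5, 20.3 and 12.7 CPM in E3 and 25.9, 20.1 and 20.4 CPM in E5. The E3 libraries were below the WT libraries, and E5 overlapped both other lines. In E3 Ereg fell by 0.63 on the log2 scale (SE 0.17, adjusted p = 0.0175, edgeR), a call that was lost without WT replicate 2 (adjusted p = 0.0702, edgeR) or WT replicate 3 (adjusted p = 0.0576, edgeR). In E5 the log2 fold change was -0.20 (interval -0.58 to 0.17, adjusted p = 0.44, edgeR), and E5 against E3 gave 0.42 (adjusted p = 0.079, edgeR), which passed without replicate 2 of E3 (0.60, adjusted p = 0.0177, edgeR).

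Btc encodes betacellulin, likewise a ligand of EGFR and ERBB4, and was the EGFR ligand gene that rose. Its levels were 1.96, 1.70 and 2.05 CPM in WT cells, 3.14, 3.00 and 2.75 CPM in E3 and 2.74, 2.39 and 3.62 CPM in E5. Every KO library was above every WT library, and the clones overlapped. Log2 fold changes were 0.64 in E3 (SE 0.18, adjusted p = 0.0245, edgeR) and 0.62 in E5 (SE 0.18, adjusted p = 0.0382, edgeR). The clones were close, at -0.02 for E5 against E3 (interval -0.42 to 0.38, adjusted p = 0.945, edgeR). Both calls were near the threshold: that in E3 was lost without any 1 of the WT libraries or without replicate 1 of E3 (adjusted p up to 0.104), and that in E5 without any 1 of the WT libraries or without replicate 1 or 3 of E5 (adjusted p up to 0.151), and without the filter on low counts (adjusted p = 0.0508, edgeR).

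Tgfa (chr6:86172205-86252701, plus strand), the gene of transforming growth factor alpha, and Epgn, the gene of epigen, were at the low end. Tgfa was measured at 0.681, 1.05 and 1.01 CPM in WT cells, at 0.760, 1.65 and 0.901 CPM in E3 and at 1.34, 1.21 and 0.703 CPM in E5, and the 3 lines overlapped. Its log2 fold changes were 0.27 in E3 (interval -0.51 to 1.05, adjusted p = 0.601, edgeR) and 0.24 in E5 (interval -0.54 to 1.01, adjusted p = 0.689, edgeR), so that a 2-fold rise, 1 on this scale, lay inside both intervals at these counts of 34 to 78 per library. Epgn had 10, 6 and 4 counts in WT cells, 1, 4 and 4 in E3 and 2, 6 and 2 in E5, and no difference was detectable at this depth.

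**Figure D2:**
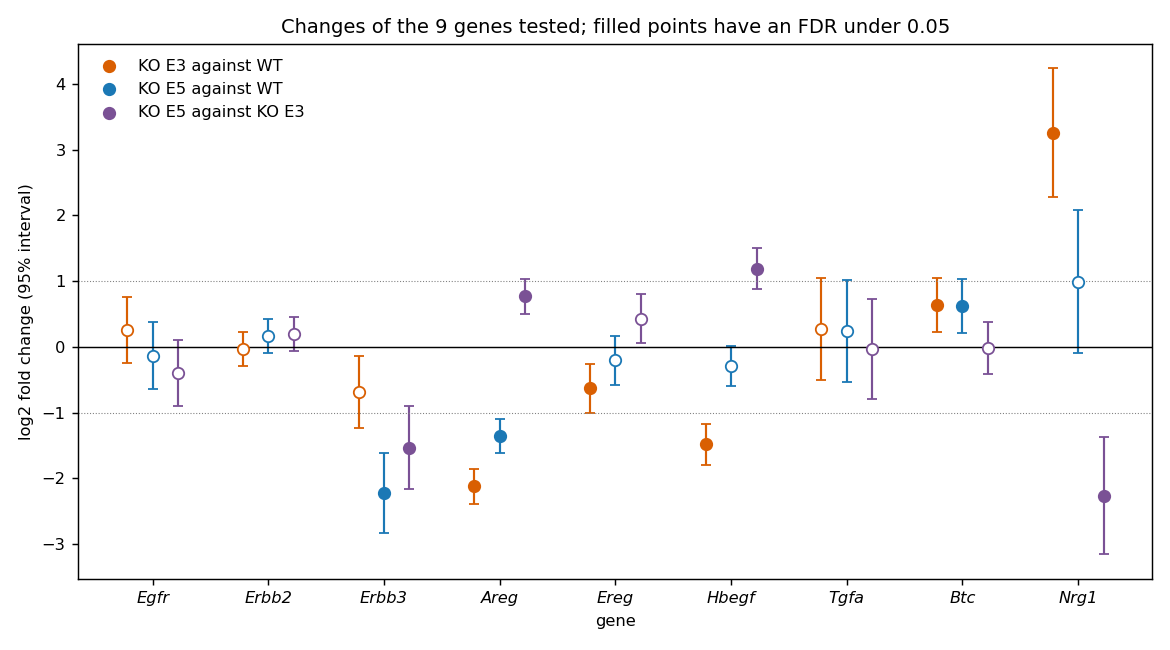
Log2 fold changes of the 9 tested genes with 95% intervals from edgeR, for KO E3 against WT, KO E5 against WT and KO E5 against KO E3; filled points have an FDR under 0.05 and dotted lines mark -1 and 1. Areg is below -1 in both clones (-2.12 and -1.36), whereas against WT Hbegf is below -1 in E3 only, Erbb3 is below -1 in E5 only, and Nrg1 is highest in E3 (3.25).

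Nrg1 (chr8:32304579-33374825, minus strand) encodes the neuregulins that bind ERBB3 and ERBB4. It was measured at 0.200, 0.442 and 0.274 CPM in WT cells (10, 21 and 13 counts), at 3.12, 4.29 and 1.36 CPM in E3 (156, 203 and 62 counts) and at 0.517, 0.737 and 0.573 CPM in E5 (24, 34 and 31 counts). The lines did not overlap, with WT lowest and E3 highest. Nrg1 rose in E3 by a log2 fold change of 3.25 (SE 0.44, adjusted p = 0.00046, edgeR), 9.54-fold, and ranked 45 from the top of 14593 genes by log2 fold change. Without replicate 3 of E3, which had the lowest of the E3 values, the log2 fold change was 3.59. E5 against E3 gave a log2 fold change of -2.26 (SE 0.40, adjusted p = 0.00198, edgeR). In E5 against WT the log2 fold change was 0.99 (interval -0.09 to 2.08, adjusted p = 0.185, edgeR), which passed with only the WT and E5 libraries fitted (adjusted p = 0.0264, edgeR) and without replicate 3 of E3 (adjusted p = 0.0267, edgeR).

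To set the genes beside each other, CPM were divided by the length of each gene's merged exons in kb. On this scale Areg was the most abundant of the 10 in WT cells, at 42.5 ± 3.52 CPM per kb (SD, n = 3). Ereg (5.73 ± 0.449) and Erbb2 (5.72 ± 0.352) came next and overlapped each other, followed by Hbegf (3.71 ± 0.501) and Egfr (3.67 ± 0.179), which also overlapped. Btc (0.419), Erbb3 (0.286), Tgfa (0.134), Epgn (0.0758) and Nrg1 (0.0183) were each below 1 CPM per kb, with only Tgfa and Epgn overlapping. Areg remained first in E3, at 9.75 ± 1.47, and in E5, at 16.6 ± 0.489 CPM per kb. In both clones Erbb2 was second, at 5.60 ± 0.819 and 6.42 ± 0.318 CPM per kb, and in E3 it overlapped Egfr (4.40 ± 1.62), which in turn overlapped Ereg (3.70 ± 0.853). Nrg1 was last in WT and in E5, where it overlapped Epgn, and was level with Erbb3 and Tgfa in E3, at 0.175 ± 0.0883 CPM per kb. With the longest transcript as the length, Hbegf moved to second place in WT cells, at 6.57 CPM per kb, and overlapped Erbb2. On that length Nrg1 was not last in E5 but above Erbb3, at 0.0861 and 0.0611 CPM per kb. In E3 the mean of Nrg1 was then 0.413 ± 0.208 CPM per kb, above those of Tgfa (0.234) and Erbb3 (0.177), with overlapping libraries.

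Summed over the 6 EGFR ligand genes, the level per kb was 49.7, 57.2 and 50.8 in the WT libraries, 14.6, 15.8 and 16.5 in E3 and 24.3 to 26.5 in E5. The lines did not overlap in this sum. Areg made up 80.8% ± 1.34 of it in WT cells (SD, n = 3), 62.3% ± 6.75 in E3 and 65.3% ± 2.11 in E5. The share of Ereg was 10.9% ± 0.466 in WT cells, 23.8% ± 5.97 in E3 and 19.5% ± 2.08 in E5. Hbegf held 7.07% ± 0.847, 8.48% ± 0.817 and 11.9% ± 0.389, and Btc 0.803% ± 0.129, 4.19% ± 0.526 and 2.52% ± 0.533, in the same order. With the longest transcript as the length, Hbegf held 11.8%, 13.9% and 19.2% and Ereg 10.3%, 22.2% and 17.8% in WT, E3 and E5, so the order of these 2 mean shares in WT cells and in E5 turned with the length used. Most of the summed EGFR ligand RNA was thus amphiregulin RNA in every line. Among the 3 receptors, Erbb3 made up 2.77 to 3.21% of the summed level per kb in WT cells, 1.53 to 2.06% in E3 and 0.536 to 0.675% in E5.

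**Figure D3:**
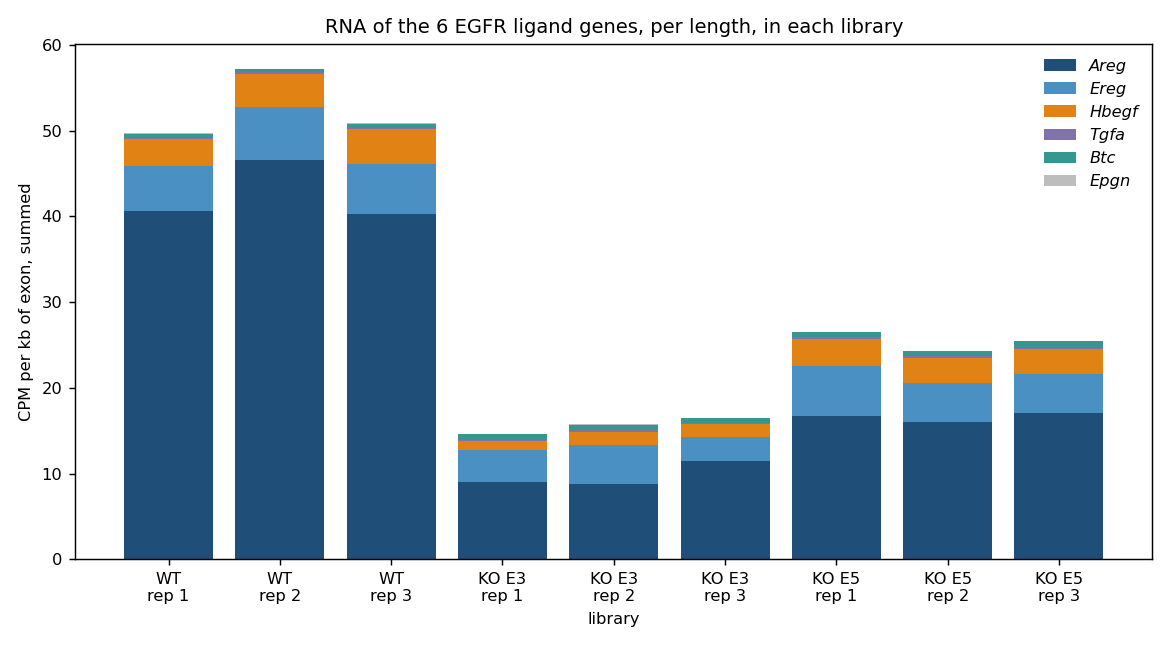
Level of the 6 EGFR ligand genes in each library, in CPM per kb of merged exon, stacked by gene. The bars reach 49.7 to 57.2 in WT cells, 14.6 to 16.5 in KO E3 and 24.3 to 26.5 in KO E5, and Areg is the tallest segment in all 9 libraries.

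The annotated genes around the chromosome 5 ligand cluster were examined to see whether its neighbours moved with Areg. Within 500 kb of the cluster lie 12 other protein-coding genes, of which 4 passed the filter on low counts: Cxcl5, Ppbp and Cxcl1, which encode neutrophil-attracting chemokines, and Mthfd2l, which encodes a mitochondrial folate enzyme. Cxcl1, whose start lies at -248 kb from that of Areg, was measured at 5.67, 7.30 and 7.51 CPM in WT cells, at 3.78, 2.20 and 3.87 CPM in E3 and at 7.22, 4.60 and 3.68 CPM in E5. In E3 it fell by 1.06 on the log2 scale (SE 0.28, adjusted p = 0.0159, edgeR), and its log2 fold change in E5 was -0.40 (adjusted p = 0.336, edgeR). The call in E3 was lost without WT replicate 2 or 3. Cxcl5 rose in E5 by 0.86 (SE 0.21, adjusted p = 0.0173, edgeR), with 3.47 to 4.47 CPM in WT cells and 6.07 to 8.86 CPM in E5, and its log2 fold change in E3 was 0.41 (adjusted p = 0.177, edgeR). The call in E5 was lost without WT replicate 1 or 2 or without replicate 1 of E5. Mthfd2l, at 12.2 to 17.7 CPM over all libraries, and Ppbp, at 0.801 to 1.82 CPM, did not pass against WT in either clone. The genes of this region therefore had log2 fold changes of both signs, with Areg and Ereg lower and Btc higher in clone E3.

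**Figure D4:**
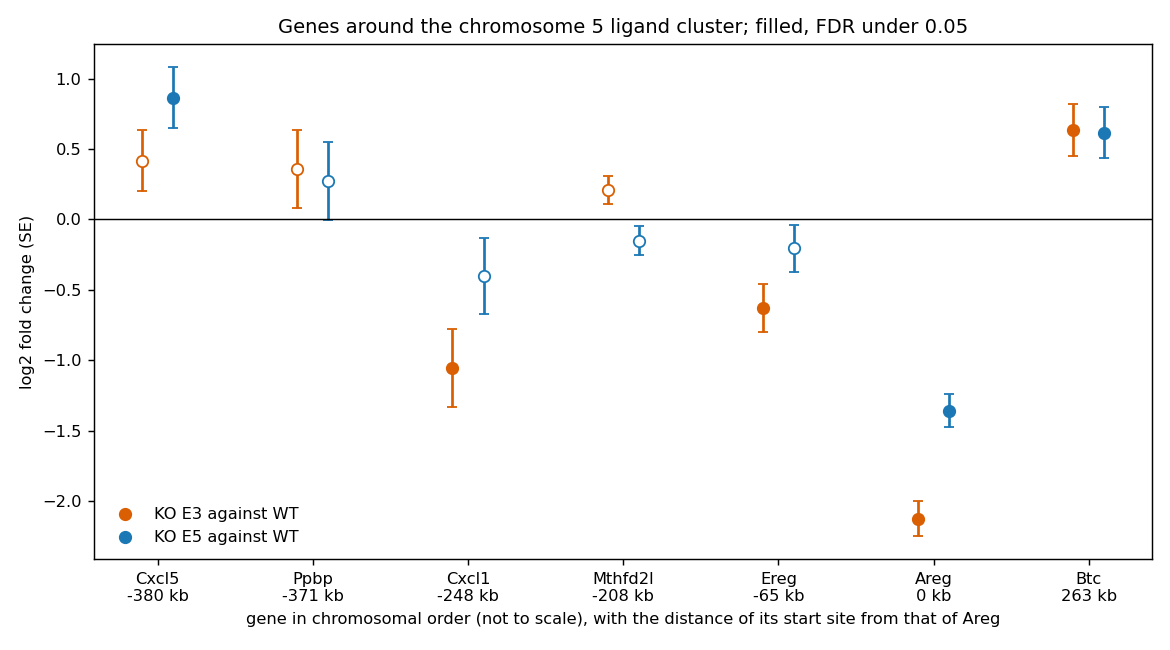
Log2 fold changes (points; bars are SE) of the 7 tested protein-coding genes in and around the ligand cluster, in chromosomal order and not to scale, with the distance of each start site from that of Areg; filled points have an FDR under 0.05. Areg is at -2.12 in KO E3 and -1.36 in KO E5, while Btc, 263 kb away, is at 0.64 and 0.62.

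The other genes of the pathway were taken as a list of 62, written from general knowledge, of which 55 passed the filter. In E3 13 of the 55 changed at an FDR under 0.05 (6 rose and 7 fell, with 30.5% of all genes changed), in E5 10 (6 rose and 4 fell, with 20.6%), and between the clones 18 (10 higher and 8 lower in E5, with 31.9%). The median absolute log2 fold change of the list was 0.24 in E3, beside 0.31 over all genes, and 0.17 in E5, beside 0.25. DEGs were 1 in E3 (Vav3; 9.82% of all genes) and 2 in E5 (Adam19 and Nrg2; 8.21%). Without replicate 3 of E3 the DEG in E3 was Adam19, at 1.18, and Vav3, at -0.97, no longer was one. The counts at an FDR under 0.05 without that library were 22 in E3 (43.2% of all genes), 26 in E5 (42.0%) and 31 between the clones (44.1%).

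Among the inhibitors of the receptors, 4 of 12 tested genes changed in E3 (1 rose and 3 fell) and 3 of 12 in E5 (1 rose and 2 fell), beside 30.5% and 20.6% of all genes. Errfi1, whose product MIG6 binds and blocks the kinase domains of the family, was measured at 140, 139 and 139 CPM in WT cells, at 78.1, 74.5 and 62.1 CPM in E3 and at 78.1, 76.7 and 69.2 CPM in E5. Every KO library was below every WT library, and the clones overlapped. Errfi1 fell by 0.96 on the log2 scale in E3 (SE 0.11, adjusted p = 0.000134, edgeR) and fell by 0.90 in E5 (SE 0.11, adjusted p = 0.000187, edgeR), just short of the size required of a DEG. Lrig1, a transmembrane inhibitor of the receptors, fell by 0.61 in E5 (adjusted p = 0.00324, edgeR). Lrig3, of the same gene family, went in opposite directions: it fell by 0.43 in E3 (adjusted p = 0.0445, edgeR) and rose in E5 by 0.68 (adjusted p = 0.00668, edgeR), with 1.10 between the clones (adjusted p = 0.000259, edgeR). Its call in E3 was lost under 12 of the alternatives run, among them without replicate 3 of E3 (-0.31, adjusted p = 0.0526, edgeR). Rnf41, a ubiquitin ligase that acts on ERBB3, fell by 0.42 in E3 (adjusted p = 0.00539, edgeR).

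Among the genes for shedding and processing of the ligands, 4 of 11 changed in E3 (3 rose and 1 fell) and 3 of 11 in E5 (2 rose and 1 fell), beside 30.5% and 20.6% of all genes. Adam17 and Adam10, the main sheddases of EGFR ligands, were at 143 ± 7.91 and 164 ± 3.60 CPM in WT cells (SD, n = 3), and their log2 fold changes did not pass the test, at -0.11 and -0.01 in E3 and 0.05 and -0.19 in E5 (adjusted p from 0.5 to 0.987, edgeR). Without replicate 3 of E3, Adam10 was at 0.20 in E3 (adjusted p = 0.0223, edgeR). In E5 its value was nearly the same without that library, at -0.18, but it then passed the test (adjusted p = 0.023, edgeR). Adam19, a protease known to cleave neuregulin 1, had 155, 128 and 130 counts in WT cells, 353, 279 and 135 in E3 and 0 in all 3 E5 libraries. With 3 counts per library taken as the limit of detection, E5 was at least 43.8-fold lower than WT and at least 81.6-fold lower than E3. The rise of Adam19 in E3, at 0.90 (adjusted p = 0.0495, edgeR), was lost in 10 of the alternatives run, and without replicate 3 of E3 it was 1.18 (adjusted p = 0.000239, edgeR). Rhbdf1, which encodes a rhomboid-like partner of ADAM17, rose in E3 by 0.57 (adjusted p = 0.000755, edgeR) and in E5 by 0.32 (adjusted p = 0.0236, edgeR), and its relative Rhbdf2 fell by 0.44 in E3 (adjusted p = 0.013, edgeR). The call on Rhbdf1 in E5 was lost without WT replicate 2 or 3 or replicate 1 or 2 of E5. That on Rhbdf2 in E3 was lost without WT replicate 2 or 3. In E5 Rhbdf2 did not pass against WT with all libraries, but it did without replicate 3 of E3.

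Of the adaptors and proximal effectors, 4 of 16 changed in E3 and 2 of 16 in E5, in each case with as many rising as falling, beside 30.5% and 20.6% of all genes. Vav3, a guanine nucleotide exchange factor, was measured at 17.4, 16.7 and 17.0 CPM in WT cells, at 8.82, 8.60 and 4.95 CPM in E3 and at 10.6, 11.2 and 10.6 CPM in E5, and the 3 lines did not overlap. It fell by 1.19 in E3 (SE 0.19, adjusted p = 0.00101, edgeR) and fell by 0.65 in E5 (SE 0.18, adjusted p = 0.0287, edgeR). Without replicate 3 of E3 it fell by 0.97 in E3 (adjusted p = 6.18e-06, edgeR). The call in E5 was lost without any 1 of the WT or E5 libraries. Sos2, an exchange factor for RAS, fell by 0.82 in E3 (adjusted p = 0.00903, edgeR), and its log2 fold change in E5 was 0.33 (adjusted p = 0.265, edgeR), with a difference between the clones of 1.15 (adjusted p = 0.00138, edgeR). The E5 libraries lay above all WT libraries for Sos2, and the value in E5 passed with only the WT and E5 libraries fitted (0.33, adjusted p = 0.000539, edgeR) and without replicate 3 of E3 (0.33, adjusted p = 0.000666, edgeR). Pik3r2, which encodes a regulatory subunit of PI3 kinase, rose in E3 by 0.62 (adjusted p = 0.000351, edgeR) and in E5 by 0.45 (adjusted p = 0.00279, edgeR). Of 14 trafficking genes, 1 changed in each clone against WT, beside 30.5% and 20.6% of all genes. Stam, of the endosomal sorting machinery, fell by 0.48 in E3 (adjusted p = 0.00663, edgeR), and Ap2m1, of the clathrin adaptor, rose in E5 by 0.33 (adjusted p = 0.0426, edgeR). The call on Ap2m1 was lost without WT replicate 2 or 3 or replicate 1 or 2 of E5.

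Of the 5 remaining family genes, 2 passed the filter. Egf, which encodes the founding ligand, had log2 fold changes of -0.28 in E3 (adjusted p = 0.408, edgeR) and -0.38 in E5 (adjusted p = 0.296, edgeR). Nrg2, a second neuregulin gene, was measured at 1.08, 1.22 and 1.35 CPM in WT cells, at 0.980, 1.56 and 0.901 CPM in E3 and at 5.77, 4.29 and 3.74 CPM in E5. The E5 libraries were above all others, and E3 overlapped WT. Nrg2 rose in E5 by a log2 fold change of 1.92 (SE 0.24, adjusted p = 0.000336, edgeR), 3.77-fold, and its log2 fold change in E3 was -0.08 (interval -0.66 to 0.49, adjusted p = 0.843, edgeR). E5 was higher than E3 by 2.00 (SE 0.25, adjusted p = 0.000198, edgeR). The neuregulin genes thus differed in which clone carried the higher level: Nrg1 was higher in E3 and Nrg2 in E5.

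**Figure D5:**
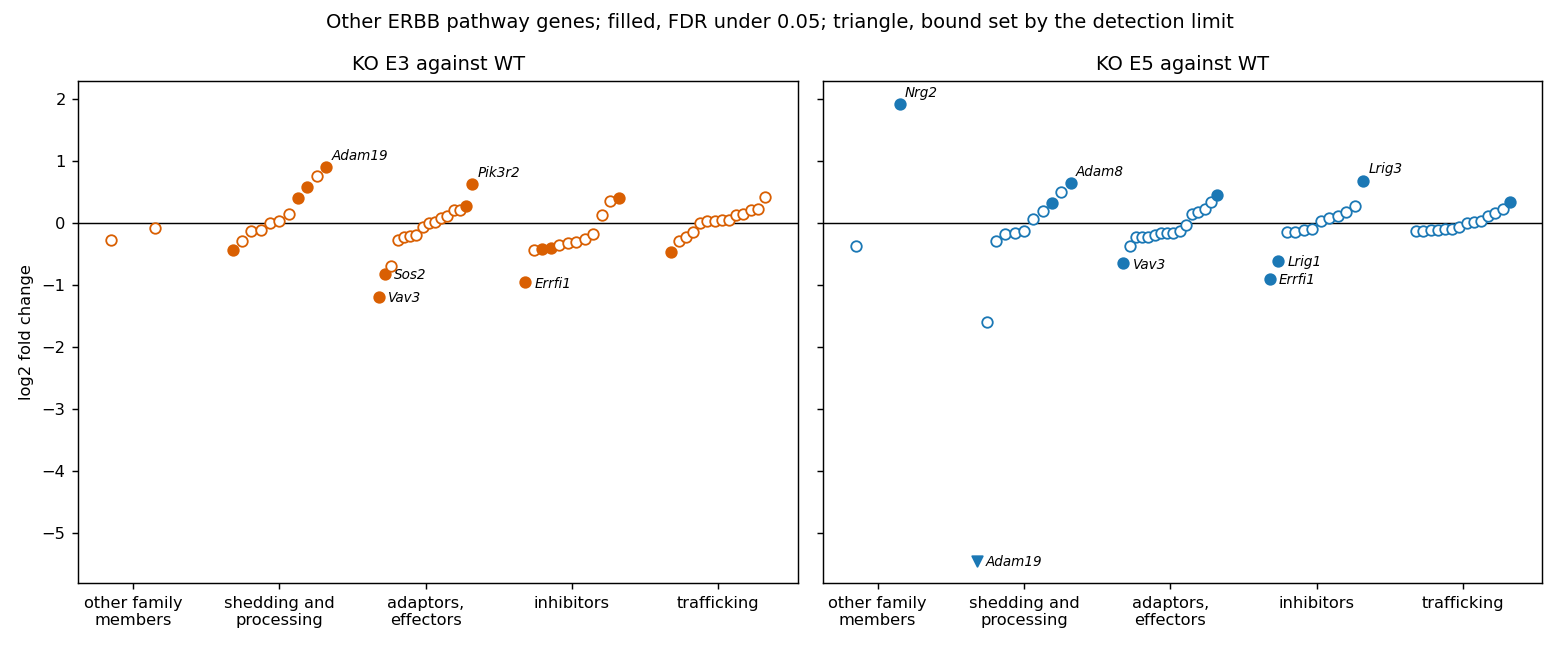
Log2 fold changes of the 55 tested genes of the wider ERBB pathway in KO E3 and KO E5 against WT, grouped by role and sorted within each group; filled points have an FDR under 0.05, and the triangle for Adam19 in E5 marks the bound set by the limit of detection (at least 43.8-fold lower). Most points lie within 0.5 of 0, and Errfi1 is near -0.9 in both panels.

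The patterns most like that of Areg were sought by Pearson correlation of log2 CPM over the 9 libraries, among 10312 genes above an average log2 CPM of 1. The 3 closest were Arhgap9 (r = 0.990), which encodes a GTPase-activating protein, Alg9 (r = 0.986), which encodes a mannosyltransferase, and Atf3 (r = 0.983), which encodes a stress-induced transcription factor of the CREB and ATF family. These values describe 9 points that fall into 3 lines. The genes were picked by this correlation, so a shared order of the lines and falls in both clones follow from the choice. Atf3 was measured at 38.6, 48.1 and 45.9 CPM in WT cells, at 3.64, 2.03 and 3.80 CPM in E3 and at 8.92, 9.95 and 12.9 CPM in E5. Like Areg it had the order WT, E5 and E3, and it fell by 3.81 on the log2 scale in E3 (SE 0.24, adjusted p = 4.77e-06, edgeR) and fell by 2.06 in E5 (SE 0.22, adjusted p = 8.99e-05, edgeR). Arhgap9 was at 11.8 to 12.3 CPM in WT cells, 3.12 to 4.42 CPM in E3 and 5.20 to 5.86 CPM in E5. Alg9 had the same order over a narrow range. It was at 39.4 to 40.2 CPM in WT cells, 32.1 to 33.2 CPM in E5 and 29.7 to 30.8 CPM in E3. For Alg9, E5 against E3 did not pass (0.12, adjusted p = 0.283, edgeR). Its call in E5 against WT (-0.28, adjusted p = 0.0306, edgeR) was lost under 8 of the alternatives run.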

How the data were processed

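RNA-seq libraries of LLC cells (3 of WT, 3 of CD47 KO clone E3, 3 of clone E5) were prepared with a directional polyA kit. Per the labels the authors used FastQC, Trimmomatic, STAR and GRCm39, and they deposited raw counts per gene, not normalized and not pooled. Which program counted the reads, with which strand setting and annotation, is not given in the sources used here. The table held no columns of other samples.

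Counts were tested with edgeR (version 4.0.16) in R (version 4.3.3) by the quasi-likelihood test with TMM scaling, with 1 fit over the 3 lines. Genes were filtered with filterByExpr (minimum count 10, minimum total 15), and p-values were adjusted by Benjamini-Hochberg over the 14593 genes tested. Standard errors were obtained as |log2 fold change| / sqrt(F). DEGs followed the study's thresholds. The test was checked on simulated data. It recovered 20 of 82 simulated 1.5-fold changes in E3 against WT, 19 of 71 in E5 against WT and 15 of 66 between the clones. For 2-fold changes it recovered 46 of 58, 53 of 67 and 52 of 66 in the same order. Most simulated 1.5-fold changes were thus missed. The simulation changed only a small part of its 14378, 14348 and 14364 genes, whereas 20.6 to 31.9% of all genes passed in the data. With so few changed genes the adjustment of p-values is stricter, so these shares need not hold for the data. Lengths, start sites and sequences came from GENCODE M39 on GRCm39, which held 98.9% of the gene IDs. Alternatives were DESeq2 (version 1.42.0), 2 other scalings, 2 other filters, only the lines compared, a replicate block, each library left out, and transcript length.

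The members and lists were chosen with earlier results of these data known. Named genes were the 10 genes, Cd47, pathway genes that were DEGs in any comparison at an average log2 CPM above 0 with Adam10, Adam17, Errfi1 and Erbb4, genes within 500 kb of the chromosome 5 cluster, and the 3 genes most like any member that was a DEG in both clones. Lrig1, Rnf41, Rhbdf1, Rhbdf2, Pik3r2, Stam and Ap2m1 were named after their values were seen. Total counts of 44257404 to 55095219 leave counting error small above a few CPM, and limits of detection (3 counts) cover counting error only.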

Additional observations from a re-analysis of the deposited data

Results flagged for a closer look

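The differences from the shared WT libraries were not the same in the 2 clones, by the test of E5 against E3, for 5 genes. These were Areg (log2 difference 0.77), Hbegf (1.19), Erbb3 (-1.54), Nrg1 (-2.26) and the target Cd47 (-1.36). The same test differed for 18 of the 55 genes of the wider pathway, where 31.9% of all genes did. Only those named by rule are given here: Nrg2 (2.00), Sos2 (1.15), Lrig3 (1.10), Vav3 (0.54) and Adam19. The fitted value for Adam19, -11.00, compares with 0 counts in E5 and is no bound. The clones also differed for Mthfd2l (-0.36) beside the ligand cluster and for Arhgap9 (0.55) and Atf3 (1.75), whose patterns were like that of Areg. Each of the 3 libraries of E5 lay on 1 side of all 3 libraries of E3 for the genes given here, and each clone is a single line. The call between the clones was lost under 10 of the alternatives for Vav3, 4 for Mthfd2l and 2 for Arhgap9, and under none for the others given here.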

How the results depend on the processing

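Of the 10 genes, Areg, Hbegf in E3, Nrg1 in E3, Erbb3 in E5, and the differences of these 4 genes between the clones kept their direction and their call under every alternative run. DEG counts among the 10 stayed at 3, 2 and 3 when each library was left out. Of all genes 8.46 to 10.6% were then DEGs in E3, 6.99 to 9.09% in E5 and 9.99 to 12.5% between the clones. Replicate numbers were shared by the lines, but same-numbered libraries did not deviate together (correlations -0.172 to 0.0472), so the numbers do not pair the libraries. With a replicate block the pathway count between the clones was 11 (26.6% of all genes), the call on Btc in E5 was lost (0.61; adjusted p = 0.0646) and Tgfa between the clones was at 0.0123.

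With only the 2 lines fitted, the counts at an FDR under 0.05 were 5 of the 10 genes in E5, and 30 pathway genes in E5 (46.8% of all genes) and 9 between the clones (3122 of 14164 genes in all). Where each library had to hold 10 or more counts, which removes Adam19 and Timp3, pathway DEGs were 1 in E5 (4.55% of all genes) and 3 between the clones (6.66%). Leaving out each library moved the count among the 10 genes to 3 to 6 in E3, pathway counts to 8 to 22 in E3, 6 to 26 in E5 and 9 to 31 between the clones, and pathway DEGs to 1 to 2 in E3 and 3 to 5 between the clones. Over the same fits 19.3 to 43.2% of all genes were called in E3, 11.9 to 42.0% in E5 and 21.7 to 44.1% between the clones. DEGs were 8.46 to 10.6% of all genes in E3 and 9.99 to 12.5% between the clones. The highest of the 3 pathway counts came without replicate 3 of E3, and the causes were not tested.

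Values near 0 turned sign. With upper-quartile scaling the median over all genes was 0.09 in E3 and -0.10 between the clones, beside 0.01 and -0.01 in the main fit. The values that turned under it were Erbb2 in E3 (0.0415), Adam10 in E3 (0.0601) and Errfi1 between the clones (-0.0260). Adam10 in E3 was at 0.00515 with 10 or more counts everywhere and at 0.000256 with 2 lines fitted. Leaving out single libraries gave ranges in E3 of -0.145 to 0.0680 for Erbb2, -0.144 to 0.480 for Tgfa, -0.373 to 0.0580 for Nrg2, -0.140 to 0.203 for Adam10 and -0.211 to 0.0306 for Adam17. Between the clones the ranges were -0.245 to 0.378 for Tgfa, -0.206 to 0.105 for Btc, -0.0235 to 0.127 for Errfi1 and -0.273 to 0.104 for Ppbp. Low counts limit what can be said of Erbb3, Tgfa, Epgn and Nrg1.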
